A study of Mus musculus with 35 samples.

Results

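The comparison covers the ATAC-seq of mouse embryonic fibroblasts (MEFs) treated with AE and of MEFs under the condition labelled Basal, with 2 libraries of each, which are 4 of the 14 ATAC-seq libraries and of the 35 samples in the series. All libraries were taken on day 4 of chemical reprogramming, each from 50000 cells and with 13 cycles of PCR. In the study's code, A is AM580 and E is EPZ004777, and 4 other treatments (6FAE, C6AE, C6FAE and CFAE) hold A and E together with further chemicals. The sources used here do not define the medium of Basal, how it differs from the Control (Ctr) libraries, or whether the 2 libraries of AE or those of Basal came from separate cultures. The libraries were selected by their labels, and this pair of treatments was chosen because its replicates were alike in enrichment. The AE libraries had 7048 and 5174 peaks with -log10 q from 1.3 upwards, and the Basal libraries 6708 and 7313. MEFs are a mixed primary culture from embryos. Their fibroblast markers could not be read from these files, because no gene annotation of the files' genome build, mm9, was given.

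AM580 is a retinoid that activates the retinoic acid receptor alpha, a nuclear receptor which binds DNA at retinoic acid response elements and recruits co-activators when a ligand is bound. EPZ004777 inhibits DOT1L, the enzyme that methylates histone H3 (H3K79) in transcribed genes, and inhibition of DOT1L is known to favour reprogramming of fibroblasts. ATAC-seq uses a transposase that inserts sequencing adapters where chromatin is accessible, so that read density marks open regions such as promoters and enhancers.

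The authors' table gives RPKM, reads per kilobase and 1000000 mapped reads, in 36431 open regions for each treatment, with the libraries of a treatment merged in 1 column. The regions are 501 to 74539 bp long, with a median of 1479 bp. The peak lists are per library and give the pileup, a depth of stacked tags at the peak. It is not a whole number and does not count the reads in a region. Depth was 4429869 and 5357318 tags in AE and 6784105 and 7337786 tags in Basal. The median pileup was taken over the 23932 regions with a peak in all 4 libraries. It was 3.34 and 3.28 tags in AE and 4.38 and 4.56 tags in Basal, so this depth was low in most regions. After scaling to depth, AE replicate 1 stood apart from the others in level. As log2 of the pileup per 1000000 tags, its median was -0.38, against -0.69 in AE replicate 2 and -0.61 and -0.66 in the Basal libraries. Before scaling, the medians of the AE libraries were close. The lowest listed pileup was 2 tags in AE and 3 tags in Basal, and its part in this offset was not tested.

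On the deposited scale, open regions were on balance slightly higher in AE than in Basal. The median RPKM was 16.4 in AE and 14.6 in Basal, and the median difference of log2(RPKM + 1), AE minus Basal, was 0.17 (95% interval over regions 0.16 to 0.17), with quartiles of -0.20 and 0.48. At least 2-fold higher in AE were 2169 regions (5.95% of all regions), and at least 2-fold lower were 1961 (5.38%). Of these changed regions, 52.5% were higher (95% Wilson interval 51.0 to 54.0%). With each column centred on its median, 1381 regions were higher (3.79%) and 2645 lower (7.26%), and the share that was higher fell to 34.3%. The direction of the balance thus depended on the scaling, and a true shift of all regions and unequal scales of the columns cannot be told apart. In bulk samples, a changed makeup of the culture and a changed accessibility per cell cannot be told apart either. These columns have no replicates, so no test was made on them, and the intervals cover only the number of regions.

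**Figure D1:**
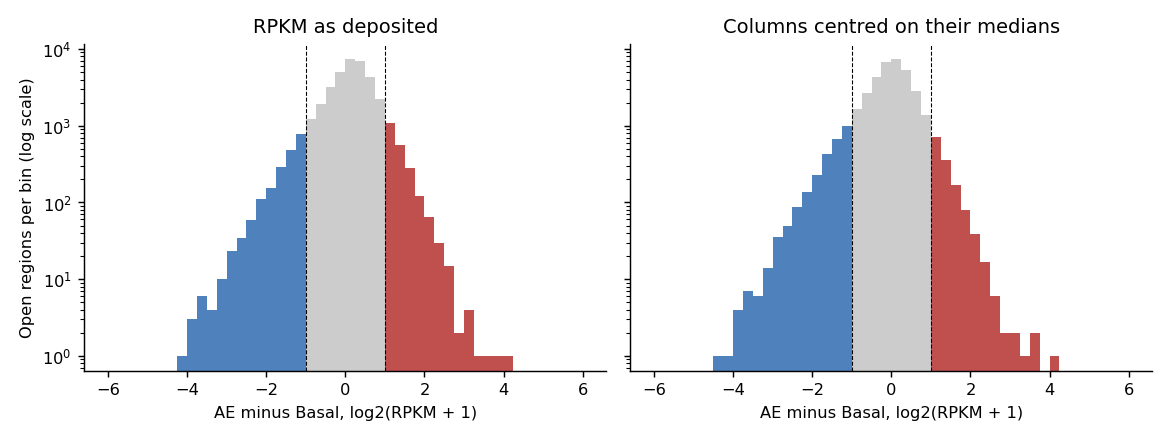
Number of open regions (log scale) per bin of the difference of log2(RPKM + 1), AE minus Basal, as deposited (left) and with each column centred on its median (right). Red bins are at least 2-fold higher in AE and blue bins at least 2-fold lower; the 2169 higher and 1961 lower regions on the left become 1381 and 2645 on the right.

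The difference followed the level of a region. When regions were placed in deciles by their mean level in the 5 other treatments, the median difference went from -0.18 in the lowest decile to 0.27 in the highest, on the deposited scale. The spread of the difference narrowed over the same deciles, from an SD of 1.05 to an SD of 0.31. In the lowest decile, 13.9% of regions passed 2-fold upwards and 21.7% downwards, against 1.26% and 0.137% in the highest decile. Regions past 2-fold were therefore mostly weak in the 5 other treatments. In AE itself, those higher in AE had a median RPKM of 20.1, against 16.4 over all regions. They were also short, with a median length of 844 bp for those higher in AE and 741 bp for those lower, against 1656 bp for the rest. By deciles of length, the SD fell from 0.97 in the shortest to 0.26 in the longest regions, and the median rose from 0.03 to 0.22. After centring, the median of the lowest decile by level was -0.34 and that of the highest 0.11.

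**Figure D2:**
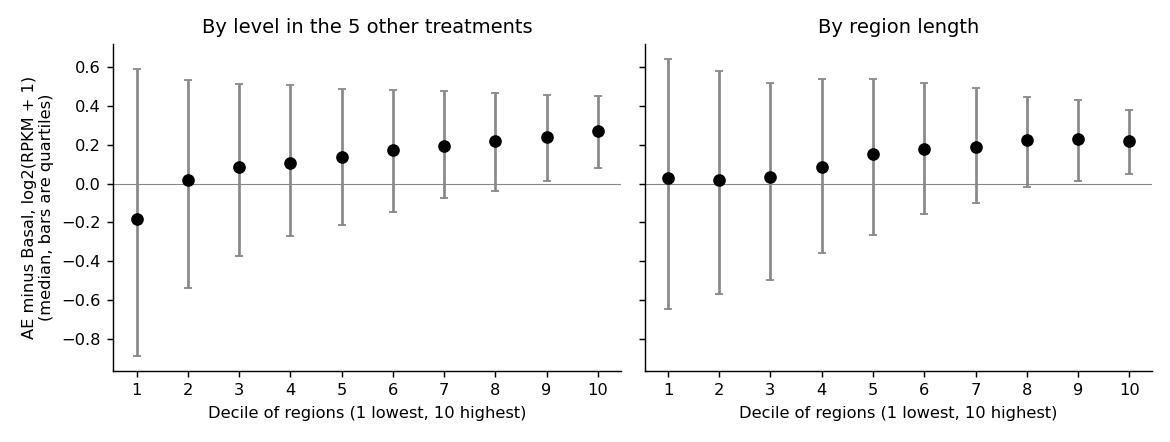
Median difference of log2(RPKM + 1), AE minus Basal, as deposited, in deciles of the 36431 regions by mean level in the 5 other treatments (left) and by length (right). Bars run from the lower to the upper quartile over regions; they narrow towards stronger and longer regions, while the median rises from -0.18 to 0.27 by level and from 0.03 to 0.22 by length.

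The counts differed by where the borders of a region came from. The start of each of the 36431 regions is the start of a peak in one of the lists, so a region can be traced to the library that gave it. A border from an AE list and none from a Basal list was found in 6368 regions, of which 1028 were at least 2-fold higher in AE and 3 lower. A border from a Basal list and none from an AE list was found in 6462 regions, of which 11 were higher and 930 lower. In these regions peaks of the compared libraries share a border with the region and may have fixed its entry in the table, so the counts can describe that choice. In the 22749 regions with borders from other treatments only, 1112 (4.89%) were higher in AE and 1026 (4.51%) lower, a split of 52.0% higher on the deposited scale. After centring, 678 were higher and 1432 lower there.

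**Figure D3:**
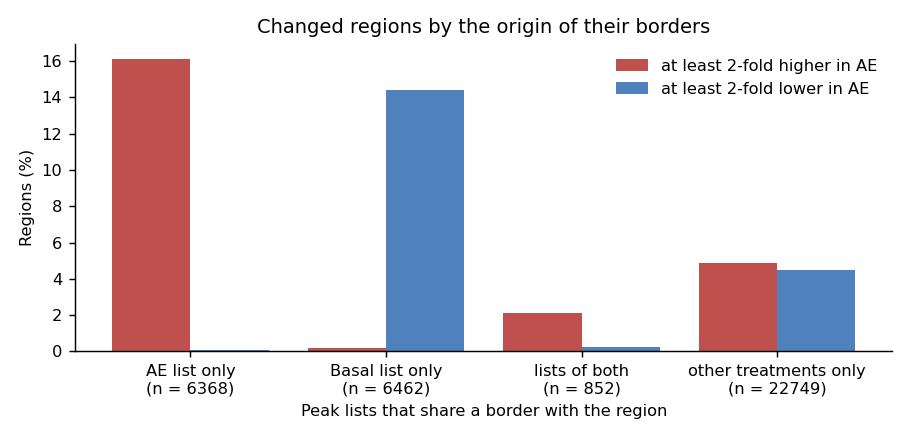
Share of regions at least 2-fold higher (red) or lower (blue) in AE on the deposited scale, by the treatment whose peak list shares a border with the region. Regions with a border from an AE list and no Basal list (labelled AE list only) are higher in 16.1%. Those with a border from a Basal list and no AE list (labelled Basal list only) are lower in 14.4%. Lists of the other treatments can share these borders. Regions with borders from other treatments only are higher in 4.89% and lower in 4.51%.

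Single regions were named only among those with a peak in both libraries of one treatment and in neither library of the other, so larger differences can lie outside them. There were 1343 such regions for AE, of which 592 were at least 2-fold higher, and 218 for Basal, of which 173 were at least 2-fold lower. The lists were not equally deep, since the lowest listed pileup was 2 tags in AE and 3 tags in Basal. The largest increase among them was at chr9:37594010-37594747 (mm9), with an RPKM of 24.7 in AE and 0.363 in Basal, a difference of 4.24 on the log2(RPKM + 1) scale. Its pileup was 4.10 tags in AE replicate 1 and 2.46 tags in AE replicate 2, and no peak was listed in Basal. The region chr5:53007454-53008090 had an RPKM of 37.1 in AE and 1.80 in Basal, and pileups of 2.52 and 4.74 tags in AE. In the third, chr1:116678410-116679775, the RPKM was 19.0 against 0.519 and the pileups were 4.74 and 2.14 tags. In these regions the pileup differed between the AE libraries as well. Over the 8 largest increases, RPKM ran from 18.4 to 40.3 in AE and from 0.363 to 5.27 in Basal. A border from an AE list was present in 5 of the 8.

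Among the regions with a peak in both Basal libraries and neither AE library, the largest decrease was at chr11:113404286-113404817, with an RPKM of 0.523 in AE and 23.3 in Basal, a difference of -4.00. Its pileup was 3.93 and 5.36 tags in the Basal libraries, and no peak was listed in AE. The region chr2:168170294-168171035 followed, with an RPKM of 0.628 against 21.9 and pileups of 4.65 and 3.36 tags in Basal. Over the 8 largest decreases, RPKM ran from 0.523 to 0.965 in AE and from 15.1 to 23.3 in Basal, and all 8 had a border from a Basal list. None of these 16 regions overlapped an H3K4me3 region of the authors' table, and 1 decrease, chr11:87689778-87690405, overlapped an H3K27me3 region. Of all regions, 31.2% overlapped H3K4me3 and 9.37% H3K27me3. The 16 regions were 502 to 1366 bp long, and of regions up to 1000 bp, 712 overlapped H3K4me3 and 10379 neither mark. The 16 are thus too few to be set apart from other short regions. At the threshold itself, chr1:82152016-82154093 was just inside with an RPKM of 23.3 in AE and 11.2 in Basal, and chr9:56301080-56301702 just outside with 29.5 and 14.3. On the lower side, chr9:97687849-97689281 was just inside (4.17 and 9.34) and chr12:17571306-17571900 just outside (2.32 and 5.64).

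**Figure D4:**
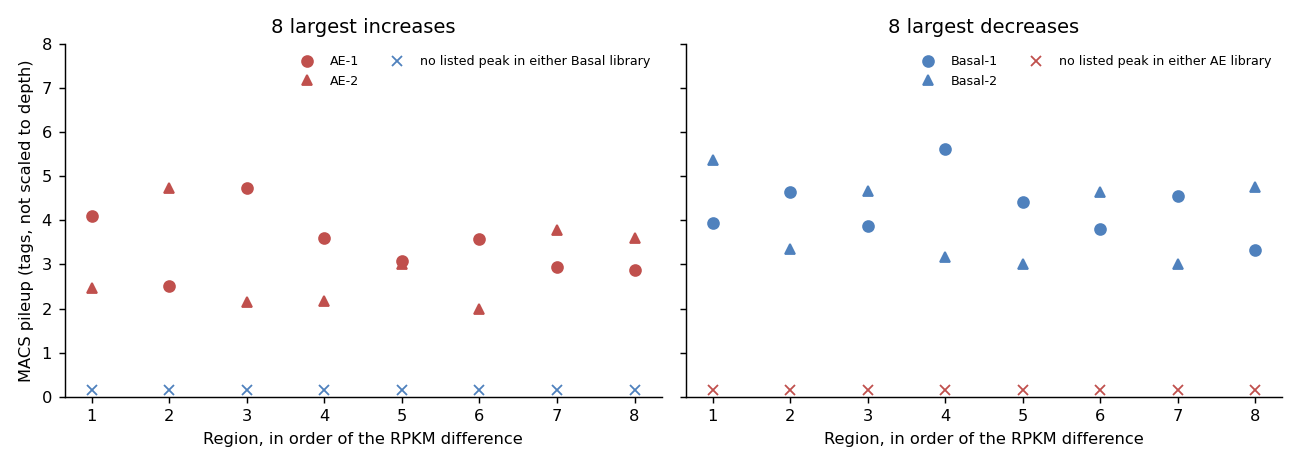
Pileup in tags, not scaled to depth, in each library at the 8 largest increases (left, AE libraries) and the 8 largest decreases (right, Basal libraries) among regions with a peak in both libraries of only one treatment, in order of the RPKM difference. Circles are replicate 1 and triangles replicate 2, and crosses near 0 mark that no peak was listed in either library of the other treatment; all values lie between 2 and 5.61 tags.

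The 5 regions of highest mean RPKM differed little in RPKM, and they lie far above the column medians of 16.4 and 14.6. On the mitochondrial genome, which lacks nucleosomes and is read heavily in ATAC-seq, chrM:1-6468 had an RPKM of 13251 in AE and 11857 in Basal, and chrM:10825-16299 had 10006 and 8896. The region chr2:98502299-98508122 had 3527 and 3694, chr17:39979910-39985894 had 2225 and 1950, and chr6:103599003-103600323 had 1438 and 1662. All 5 differences were between -0.21 and 0.19 on the log2(RPKM + 1) scale. On the depth-scaled pileup, the log2 differences of the chrM regions were 0.54 ± 0.32 and 0.42 ± 0.31 (SE, limma). On this scale, their median log2 pileup was 5.34 and 5.07 in the AE libraries, above 4.65 and 4.79 in the Basal libraries. Before scaling to depth, the treatments overlapped. The pileups of chrM:1-6468 were 220.9 and 227.59 tags in AE and 205.03 and 243.19 tags in Basal. Those of chrM:10825-16299 were 140.36 and 136.98 tags in AE and 136.91 and 165.03 tags in Basal. At most 1 tag was kept at a position. The part of this limit and of the scaling in the chrM differences was not tested. The regions on chromosomes 2, 17 and 6 had log2 differences of 0.11, 0.20 and 0.15. None of these regions passed the limma test.

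How alike the libraries were depended on the measure, and no measure over single regions put both pairs of replicates ahead of all pairs between the treatments. Over the 23932 regions with a peak in all 4 libraries, the SD of the difference of depth-scaled log2 pileup was 0.41 between the AE libraries and 0.35 between the Basal libraries. Between an AE and a Basal library it was 0.38 to 0.39 in the 4 pairs. With the median of each pair removed, 1.71% of regions differed at least 2-fold between the AE libraries, 0.598% between the Basal libraries, and 1.02 to 1.20% between the treatments. Pearson correlations across these regions, which share their borders, were 0.59 within AE, 0.60 within Basal and 0.56 to 0.59 between the treatments. By Spearman's rho the AE libraries were the closest pair, at 0.54, while the Basal libraries, at 0.52, lay within the range of 0.50 to 0.53 between the treatments.

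On the depth-scaled pileup, both AE libraries lay above both Basal libraries in 5713 regions (23.9%) and below both in 2061 (8.61%). With each library centred on its median, the counts were 4169 (17.4%) and 4245 (17.7%), nearly equal in both directions. Full separation of 2 libraries from 2 has a two-sided exact permutation p of 0.33, so it is common without a difference between treatments. In regions with borders from other treatments only, they were 16.5% and 17.8% of 13271 after centring. The excess of regions above was thus present only without centring, where AE replicate 1 lay highest.

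No region passed limma's test on these pileups, to which 533 of the 2169 regions higher in AE and 267 of the 1961 lower ones could be put, since the others lacked a listed peak in some library. At an adjusted p under 0.05 (limma, Benjamini-Hochberg), 0 of 23932 regions were higher in AE (0%) and 0 were lower (0%), and the smallest adjusted p was 0.318. At an unadjusted p under 0.05, 870 regions were higher (3.64%) and 150 lower (0.627%), and after centring of each library 657 were higher and 813 lower, again with 0 passing the adjusted threshold. The median log2 difference was 0.10 and the median standard error 0.31. Without AE replicate 2, where the lone AE library is assumed to vary like the Basal libraries, 105 regions were higher and the median log2 difference was 0.23. Without AE replicate 1, 1 region was higher and the median was -0.05. The sign of the median on this scale therefore rested on AE replicate 1.

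The regions of smallest p were picked after their values had been seen, because none met the adjusted threshold. The region chr17:73725918-73727837 had pileups of 4.03 and 9.27 tags in AE and 3.43 and 3.00 tags in Basal, with a log2 difference of 1.46 ± 0.32 (SE, limma, adjusted p = 0.318). The groups did not overlap, but AE replicate 2 was far above AE replicate 1. Its RPKM was 24.9 in AE and 7.85 in Basal. On the lower side, chr12:82584825-82586733 had 2.83 and 3.26 tags in AE and 5.88 and 12.9 tags in Basal, with a log2 difference of -0.98 ± 0.31 (SE, limma, adjusted p = 1.00), and its RPKM was 15.6 against 21.4. Both regions were thus uneven within one treatment. Others in this set were less so. The region chr12:80974999-80976487 had 6.09 and 7.6 tags in AE and 3.95 and 4.61 tags in Basal, and chr11:119463815-119465513 had 2.74 and 3.4 tags in AE and 9.64 and 7.41 tags in Basal, with log2 differences of 1.21 ± 0.30 and -0.94 ± 0.31 (SE, limma, adjusted p = 0.756 and 1.00). Their RPKM differed less. It was 21.1 in AE and 15.3 in Basal for the former and 21.6 and 27.1 for the latter. On the log2(RPKM + 1) scale these are differences of 0.44 and -0.32.

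Among the 23932 regions with a peak in all 4 libraries, those chosen in a pair of libraries had differences near 0 in the other pair. This condition also uses the other pair. Regions listed only in AE or only in Basal could not enter, so the values do not cover them. In each of the 4 ways to take 1 AE and 1 Basal library, 87 to 201 regions differed by at least 2-fold in 1 direction after centring. Read in the other 2 libraries, their median log2 differences were between -0.10 and 0.08, and 49.6 to 57.5% had the same sign. The medians over all 23932 regions were between -0.02 and 0.01. Nor did adjacent regions move together, since the correlation of the RPKM difference between neighbours less than 10000 bp apart was 0.01 across 9164 pairs. Means over windows of 1 Mb, which reduce the noise of single regions, gave log2 differences between -0.35 and 0.38 in 1570 windows. Of these windows, 0 passed the adjusted threshold in either direction (0%, limma, smallest adjusted p = 0.126), and 81 were higher and 48 lower at an unadjusted p under 0.05. Across the windows, the correlation was 0.68 within AE and 0.68 within Basal, against 0.64 to 0.66 between the treatments. At this scale both pairs of replicates were thus slightly more alike than libraries of AE and Basal, a description that was not tested.

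The balance of peaks held by AE alone and by Basal alone depended on the peaks taken. When 20000 peaks per library were taken by score and merged to 47747, 992 were in both AE libraries and neither Basal library, 1016 were in both Basal libraries and neither AE library, and 5939 were in all 4. In 1 library only were 32219. With every listed peak the counts were 59489 for AE and 7643 for Basal, and among peaks with -log10 q from 1.3 upwards they were 324 and 589. Of the peaks of one AE library, 44.8 to 44.9% were found in the other, and of the peaks of one Basal library 45.6 to 45.7%. Between the treatments, 42.7 to 47.0% were shared. An exact permutation test of 2 libraries against 2 cannot go below a two-sided p of 0.33, so none was run on the counts.

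Peaks present in one library and absent from a library of the other treatment were then looked for in the remaining libraries. Of the 11038 peaks in AE replicate 1 and not in Basal replicate 1, 2118 peaks (19.2%) were found in AE replicate 2 and 2210 in Basal replicate 2, a difference of -0.83 percentage points. The other 3 combinations gave 1.15, 1.45 and 1.96 points in favour of the AE library. Of the 10938 peaks in Basal replicate 1 and not in AE replicate 1, 17.8% were found in Basal replicate 2 and 16.0% in AE replicate 2, a difference of 1.81 points, and the other combinations gave 1.44, 0.767 and -0.92 points. The library of the same treatment was ahead in 3 of 4 combinations on both sides, by less than 2 points. With every listed peak the first difference was 18.9 points for AE and -20.6 points for Basal, in favour of AE replicate 2, the longest list, in both cases, and over all 4 combinations it ran from 8.02 to 21.8 points for AE and from -24.2 to -7.16 points for Basal. Among peaks with -log10 q from 1.3 upwards it was -9.60 points for AE and 11.5 points for Basal, while the other combinations gave -4.39, 0.829 and 4.55 points for AE and 8.40, 3.77 and -1.48 points for Basal. The direction thus moved with the peaks taken.

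**Figure D5:**
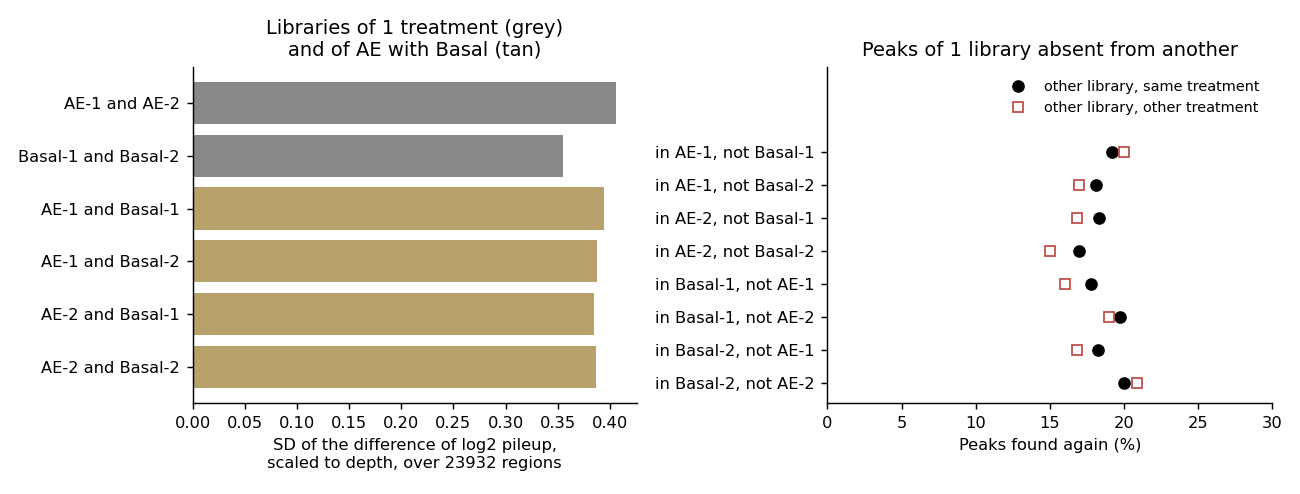
Left, SD over 23932 regions of the difference of depth-scaled log2 pileup between 2 libraries, for pairs within a treatment (grey) and between AE and Basal (tan). Right, percent of the peaks found in one library and absent from another (20000 per library, by score) that recur in the remaining library of the same treatment (filled circles) or of the other treatment (open squares); all values lie between 15.0 and 20.9%.

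In the other treatments, the regions that separated AE from Basal lay between these columns, a place that the choice of regions alone can give. In the 2169 regions higher in AE, the median RPKM was 20.1 in AE and 7.26 in Basal, and it was 14.8 in CFAE, 12.7 in C6FAE, 11.5 in 6FAE, 9.62 in C6AE and 8.43 in Ctr. In the 1961 regions lower in AE, the median was 4.24 in AE and 13.7 in Basal, and 9.92 in CFAE, 9.54 in C6FAE, 9.18 in 6FAE, 8.32 in C6AE and 7.19 in Ctr. The columns differ over all regions as well, with medians from 11.6 in Ctr to 18.5 in CFAE. Relative to the median of its own column, the higher regions stood at 0.28 in AE and -0.91 in Basal on the log2(RPKM + 1) scale, and between -0.45 and -0.30 in the 5 others, Ctr included at -0.42. Ctr thus lay within the range of the 4 other columns that hold A and E. The lower regions stood at -1.73 in AE and -0.08 in Basal, and between -0.84 and -0.50 in the 5 others. The regions were chosen for opposite extremes in the AE and Basal columns, so those values are a description of the choice. The place of the 5 others between them can follow from it too, and no effect of A and E is read from it.

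Histone marks from ChIP-seq of the same treatments, with 1 library per treatment and mark, offered a readout that did not choose the regions. H3K4me3 marks active promoters and H3K27me3 is the mark of Polycomb repression. Of all open regions, 31.2% overlapped an H3K4me3 region, against 10.7% of those higher in AE and 2.35% of those lower. These sets differed in length, with a median of 844 bp in the higher, 741 bp in the lower and 1479 bp in all regions. Among regions up to 1000 bp, whatever their difference, 712 overlapped H3K4me3 and 10379 neither mark. The overlap was not compared at matched length, so no depletion of the mark is read from these shares. In the regions that overlapped H3K4me3, its median difference, AE minus Basal in log2(RPKM + 1), was 0.08 in the 233 higher in AE. It was 0.11 in the 46 lower and 0.08 in all 11358. H3K27me3 overlapped 8.48% of the higher regions, 10.9% of the lower ones and 9.37% of all. Its median difference was -0.07 in the 184 higher regions (0.11 with the mark columns centred), 0.00 in the 214 lower ones (0.19 centred) and -0.06 in all 3415 (0.12 centred). For H3K4me3, the intervals over regions were 0.06 to 0.12 for the higher and 0.03 to 0.22 for the lower regions. For H3K27me3 they were -0.11 to -0.03 for the higher and -0.04 to 0.05 for the lower regions, and 0.07 to 0.15 against 0.14 to 0.24 with the mark columns centred. The intervals of both marks thus overlapped, those of H3K27me3 only at their ends, with the lower median in the regions higher in AE. They cover the number of regions, and not the spread between libraries.

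Grouped by mark, the open regions themselves differed in their ATAC-seq. The 9822 regions that overlapped H3K4me3 alone had a median difference of 0.25 in log2(RPKM + 1), and the 1536 with both marks 0.24. It was 0.02 in the 1879 regions with H3K27me3 alone and 0.10 in the 23194 with neither mark. Past 2-fold, where 5.95% of all regions were higher and 5.38% lower, 169 regions with H3K4me3 alone were higher (1.72%) and 34 lower (0.346%), and 64 with both marks were higher (4.17%) and 12 lower (0.781%). With H3K27me3 alone, 120 were higher (6.39%) and 202 lower (10.8%), and with neither mark 1816 were higher (7.83%) and 1713 lower (7.39%). Since regions with H3K4me3 were longer, with a median of 2923 bp against 1092 bp with neither mark, they were compared within classes of length. The median was 0.20 to 0.26 with H3K4me3 and 0.03 to 0.16 with neither mark. The shares past 2-fold were not compared within these classes. Level was not matched. The median RPKM was 21.8 in AE and 18.2 in Basal with H3K4me3 alone, and 13.8 and 12.8 with neither mark. In decile 9 by level in the 5 other treatments, whatever the mark, the median difference was 0.24. After centring, medians were 0.08 with H3K4me3 alone, 0.08 with both marks, -0.14 with H3K27me3 alone and -0.06 with neither. A difference tied to the mark apart from level was not tested. In single libraries, regions with H3K4me3 alone stood above the library's own median by 0.21 in both AE libraries and by 0.15 and 0.20 in the Basal libraries on the log2 pileup scale. The AE libraries were the higher ones, but the closest AE and Basal libraries differed by less than the Basal libraries did from each other.

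By chromosome, autosomal medians of the RPKM difference ranged from 0.15 to 0.21. On the X chromosome, 45 of 498 regions passed 2-fold upwards (9.04%) and 14 downwards (2.81%), and after centring 25 and 19. The median log2 pileup of X-linked regions, relative to autosomes, was -0.10 and -0.05 in the AE libraries and -0.04 and -0.11 in the Basal libraries. The libraries of both treatments overlapped in this level, which does not bear on the regions past 2-fold.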

How the data were processed

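ATAC-seq peak lists, an ATAC-seq table and ChIP-seq tables of MEFs on day 4 were used. Reads were aligned with Bowtie2 to mm9 according to the submitters' processing notes. Per the file headers, the authors ran MACS 2.1.2 on every library for broad peaks (p threshold 0.05, no local background, tag size 150 bp, extension 250 bp, at most 1 tag at a position). The authors' lists give the pileup signal, the -log10 p-value and q-value and the fold enrichment ratio. Although the headers state that q was not calculated, -log10 q is listed, and it was used as such. The authors' RPKM came from bamCoverage (deepTools 3.1.0), with 1 column per treatment and ATAC-seq libraries merged; how the regions were made is not given in the sources used here.

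RPKM was compared as log2 after adding a pseudocount of 1, and regions counted as changed from 2-fold on that scale, which understates the change of weak regions. Peaks overlapped from 1 bp, and the 20000 peaks of highest score per library were compared. limma 3.58.1 (R 4.3.3; lmFit and eBayes with a trend) was fitted to log2 of the highest pileup of a peak overlapping the region, per 1000000 tags kept, in regions with a peak in all 4 libraries. The p-values measure the spread between these libraries, which may be technical. Depth was 4429869 to 7337786 tags, and intervals cover counting only. Scripts in Python 3.11.15 were tested on simulated data.

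Named regions were the 8 largest increases and decreases among regions with a peak in both libraries of one treatment and neither of the other, and the 5 of highest mean RPKM. A further rule, the regions of smallest limma p among those with an adjusted p under 0.05, found none. The comparison, its lists and its rules were chosen with earlier results of these data known. The groupings by level, length, border, chromosome and mark, the windows, the pairs read again and the neighbours were added after the values were seen. Positions are as listed; no gene, sequence or motif is given, since the annotation at hand is of another build. The 2 columns of ChIP-seq samples titled as control but labelled with another treatment, and the regions on chromosome 18 as named regions, are not reported here.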

Additional observations from a re-analysis of the deposited data

How the results depend on the processing

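The counts on the merged RPKM columns moved with the scaling, and the cause was not tested. As deposited, 2169 regions were higher and 1961 lower (52.5% higher), with a median difference of 0.17. Centring on the medians gave 1381 higher, 34.3% and a median of 0.0030; quantile normalization gave 47.4% and 0.011. Centring on the most open 10% by mean RPKM gave 943 higher, 3453 lower, 21.5% and a median of -0.13, the only reversal of that median. A pseudocount of 0.1 gave a median of 0.18, and a pseudocount of 10 gave 243 higher, 185 lower, 56.8% and 0.11. Without the lower quartile of mean RPKM 689 were lower, with 68.3% higher and a median of 0.22. A threshold of 1.5-fold gave 6936 higher, 4320 lower and 61.6%. Of the 992 and 1016 merged peaks of AE and Basal, every listed peak gave 59489 and 7643, a -log10 q of at least 5 gave 10 and 38, a -log10 q of at least 1.3 gave 324 and 589, and 10000 peaks gave 615 and 650. An overlap of 0.5 of the peak gave 1683 and 850, and 1 library being enough gave 17296 and 16931. Leaving out 1 library gave 1865 to 9536 for AE and 1898 to 9188 for Basal, by construction, since 1 library then stands for its treatment.

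The excess of peaks found again in the same treatment was -0.83 points for AE. It reversed to 1.15, 1.45 and 1.96 points in the other combinations of libraries and to 18.9 points with every listed peak, and moved to -9.60 at a -log10 q of at least 1.3. For Basal, 1.81 points became 0.767 and -0.92 in other combinations, -20.6 with every listed peak and 11.5 at a -log10 q of at least 1.3. With the mark columns centred, the median H3K4me3 difference in regions higher in AE moved to 0.0099, and that of H3K27me3 turned to 0.11 in the higher and moved to 0.19 in the lower regions.

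limma called 0 regions in either direction under each alternative that kept the 4 libraries, with 351 to 940 higher and 44 to 813 lower regions at an unadjusted p under 0.05. Leaving out 1 library gave 0 to 105 higher and 0 lower regions. No paired analysis was possible because the labels number both AE libraries but only 1 of the Basal libraries. The median pileup was 3.28 to 4.56 tags per library, and the median standard error was 0.31. Even a log2 difference of 1.46 in one region did not pass the adjusted threshold. How far depth, the number of libraries or the spread between them limited the calls was not tested.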
